A study of Mus musculus with 25 samples.

Results

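Adipokines are the hormones and secreted proteins that fat tissue releases into blood. Transcripts of 9 of them were followed in mouse white adipose tissue, namely leptin (*Lep*), adiponectin (*Adipoq*), resistin (*Retn*), retinol binding protein 4 (*Rbp4*), nicotinamide phosphoribosyltransferase (*Nampt*, also called visfatin), adipsin or complement factor D (*Cfd*), apelin (*Apln*), chemerin (*Rarres2*) and omentin (*Itln1*). The members were chosen by symbol, and all 9 were found among the 54752 genes counted in each library. Of these, 8 reached the minimum level for testing in both depots, and *Itln1* did not.

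RNA was sequenced from epididymal (eWAT) and inguinal (iWAT) white adipose tissue of male C57BL/6N mice, as 25 libraries, each from the fat pad of 1 mouse. In eWAT the groups were wild type mice on normal diet (ND, n = 4), wild type mice on high-fat diet (HFD, n = 5) and HFD-fed *Acod1*-/- mice (n = 5), and in iWAT they held 3, 5 and 3 libraries. *Acod1* encodes the enzyme that makes itaconate, and it was deleted in the whole animal (C57BL/6N-Acod1em1(IMPC)J/J), so no cell type carried the deletion alone. The HFD drew 60% of its energy from fat. Both diets were given from 5 weeks of age, for 16 weeks, except that the labels of the iWAT *Acod1*-/- libraries give 17 weeks for library 2 and 18 weeks for library 3. Knockout mice on ND were not analysed here, so the genotype was compared on HFD alone. Whether libraries of the same number in both depots came from the same mouse is not given in the sources used here.

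Leptin reports the size of the fat stores to the brain and restrains appetite, and adiponectin raises the sensitivity of liver and muscle to insulin. Adipocytes make both, together with adipsin, a serine protease that starts the alternative pathway of complement, and in mice also resistin, which opposes insulin action. Retinol binding protein 4 carries vitamin A in blood, chemerin attracts immune cells through the receptor CMKLR1, apelin acts on vessels and heart through the receptor APLNR, and NAMPT makes the NAD precursor NMN. In obesity leptin is known to rise with fat mass, whereas adipsin and adiponectin tend to fall.

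The promoters of *Lep*, *Adipoq*, *Retn* and *Cfd* are shown, the 4 members named above as made by adipocytes. The sequences are from RefSeq (GRCm38.p6), read in the direction of the gene, and run from 250 bases before the start of transcription to 50 bases after it. *Lep* lies at chr6:29059971-29060270 (+), *Adipoq* at chr16:23146286-23146585 (+), *Retn* at chr8:3655520-3655819 (+) and *Cfd* at chr10:79890603-79890902 (+). Capitals mark matches, on either strand, to 6 short motifs. These were the TATA box, spelled TATAAA, the CCAAT box, the pattern of C/EBP factors, spelled TTGCNNAA, the E-box, spelled CACGTG, the nuclear receptor motif, spelled AGGTCA, and the GC box, spelled GGGCGG.
Lep: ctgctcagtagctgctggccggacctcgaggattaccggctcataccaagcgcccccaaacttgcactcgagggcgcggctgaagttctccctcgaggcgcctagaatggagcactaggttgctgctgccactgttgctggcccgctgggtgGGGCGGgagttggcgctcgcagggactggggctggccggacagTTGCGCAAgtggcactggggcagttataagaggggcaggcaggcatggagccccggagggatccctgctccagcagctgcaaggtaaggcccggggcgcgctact
Adipoq: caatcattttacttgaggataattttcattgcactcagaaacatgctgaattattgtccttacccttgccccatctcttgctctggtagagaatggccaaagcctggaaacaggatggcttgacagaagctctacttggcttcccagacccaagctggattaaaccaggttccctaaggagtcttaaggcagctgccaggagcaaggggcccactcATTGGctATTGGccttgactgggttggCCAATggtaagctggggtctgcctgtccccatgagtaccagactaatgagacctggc
Retn: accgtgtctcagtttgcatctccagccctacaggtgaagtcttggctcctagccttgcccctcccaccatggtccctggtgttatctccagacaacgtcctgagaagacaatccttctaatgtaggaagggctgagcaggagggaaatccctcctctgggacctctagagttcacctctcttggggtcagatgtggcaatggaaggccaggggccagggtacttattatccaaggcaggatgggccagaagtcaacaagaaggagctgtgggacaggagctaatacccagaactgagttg
Cfd: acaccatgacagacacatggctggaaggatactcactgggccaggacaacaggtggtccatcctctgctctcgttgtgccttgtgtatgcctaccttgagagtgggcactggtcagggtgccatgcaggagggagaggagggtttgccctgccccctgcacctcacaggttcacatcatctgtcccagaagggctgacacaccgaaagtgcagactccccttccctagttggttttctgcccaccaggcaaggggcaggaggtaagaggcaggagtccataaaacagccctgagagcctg
The *Lep* promoter held a C/EBP pattern from base -55 to base -48, which reads the same on both strands, and a GC box from -98 to -93. The *Adipoq* promoter held CCAAT 3 times, on the reverse strand from -34 to -30 and from -27 to -23 and on the forward strand from -7 to -3. Of 32851 promoters of this length, 10.8% held the C/EBP pattern, 35.7% the GC box, 37.4% the CCAAT box, 13.6% the TATA box, 16.3% the nuclear receptor motif and 7.15% the E-box. None of these letters occurred in the *Retn* or the *Cfd* window. Promoters were in the table for 8 of the 9 members, all but *Rarres2*.

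In GRCm38 the 9 genes lie on 8 chromosomes. *Lep* (ENSMUSG00000059201) spans bases 29060220 to 29073877 and *Rarres2* (ENSMUSG00000009281) bases 48569696 to 48572789 of chromosome 6. *Cfd* (ENSMUSG00000061780) spans 79890853 to 79892655 of chromosome 10, *Nampt* (ENSMUSG00000020572) 32819545 to 32853349 of chromosome 12, and *Adipoq* (ENSMUSG00000022878) 23146536 to 23158028 of chromosome 16. *Retn* (ENSMUSG00000012705) lies at 3655770 to 3660110 of chromosome 8, *Rbp4* (ENSMUSG00000024990) at 38116629 to 38125281 of chromosome 19, *Apln* (ENSMUSG00000037010) at 48025146 to 48034853 of chromosome X and *Itln1* (ENSMUSG00000038209) at 171518122 to 171535294 of chromosome 1. All are protein coding. *Nampt* shares 5033 bases with the long noncoding gene *Gdap10*, which had at most 221 counts in a library, and *Rarres2* shares 1027 bases with *Lrrc61* on the other strand, which had at most 1619. How the authors' counting split such reads is not given in the sources used here.

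Each library had 31.41 to 52.34 M reads counted on genes. The column headers of the libraries begin with either of 2 prefixes, called series 1 and series 2 here. What a prefix stands for is not given in the sources used here. All ND libraries and 1 library of each HFD group (eWAT wild type 5 and *Acod1*-/- 5, iWAT wild type 5 and *Acod1*-/- 3) were in series 2, and the other 14 were in series 1. Diet and series therefore nearly coincide, while genotype can be compared within series 1. *Acod1* itself had at most 9 counts in any library, too few to tell the genotypes apart. All 12 adipocyte markers were present in every library, with a summed level of 37495 to 87372 CPM (counts relative to all counted reads of the library, after TMM scaling). The summed level of 10 macrophage markers was 475.0 to 923.4 CPM in eWAT of ND-fed mice, 2105 to 6302 in HFD-fed wild type mice and 479.4 to 1799 in HFD-fed *Acod1*-/- mice. In iWAT it was 463.1 to 556.4, 588.0 to 1480 and 445.4 to 500.9 CPM. The 5 lymphocyte markers summed to 396.9 to 605.7 CPM in the 3 iWAT ND libraries and to at most 49.4 CPM in every other library. Epididymis markers reached 7654 CPM in 1 eWAT ND library and 1049 CPM in eWAT *Acod1*-/- library 5. Skeletal muscle markers reached 7105 CPM in 1 iWAT ND library, and mammary and skin epithelium markers 529.3 CPM in iWAT *Acod1*-/- library 2. In such bulk tissue, fewer cells of a type and less RNA per cell cannot be told apart.

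**Figure D1:**
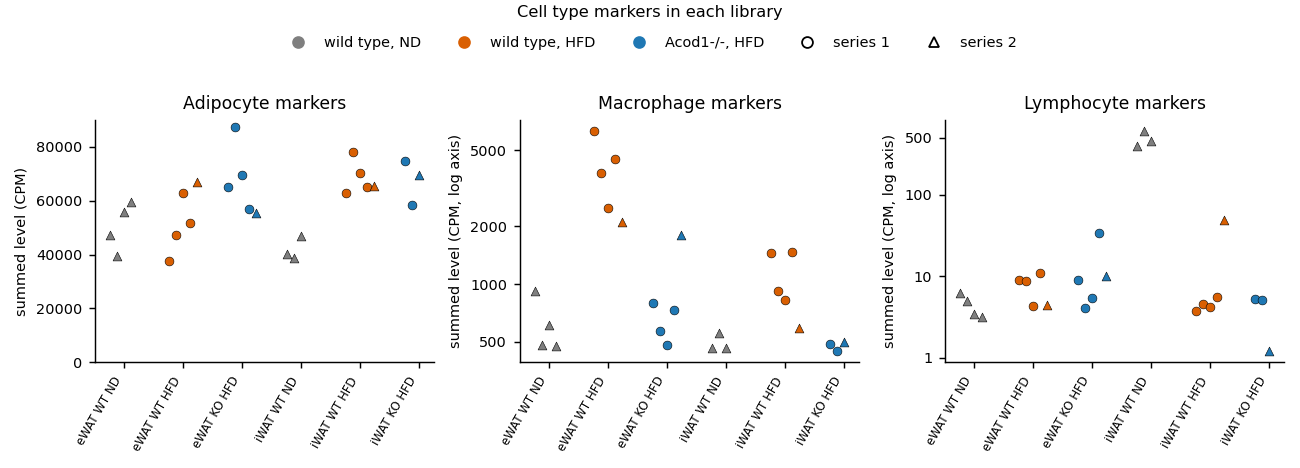
Summed level of the adipocyte, macrophage and lymphocyte markers (CPM; log axes for the last 2) in each library by group, with circles for series 1 and triangles for series 2. Macrophage markers were highest in eWAT of HFD-fed wild type mice (2105 to 6302 CPM), and lymphocyte markers in iWAT of ND-fed mice (396.9 to 605.7 CPM).

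Per length of transcript, *Cfd* was the most abundant adipokine on ND, at 6713 ± 2172 CPM per kb in eWAT (SD, n = 4) and 6418 ± 1646 in iWAT (n = 3). *Adipoq* followed with 2133 ± 351.3 in eWAT and 1350 ± 31.4 CPM per kb in iWAT, and then *Retn* with 1060 ± 285.4 and 740.4 ± 140.9. Lower levels per length were those of *Rbp4* (392.6 ± 108.7 and 182.8 ± 32.9), *Lep* (280.3 ± 180.6 and 120.5 ± 59), *Rarres2* (110.7 ± 26.5 and 116.5 ± 18.4), *Nampt* (45.8 ± 11.5 and 44.2 ± 8.11) and *Apln* (7.73 ± 4.68 and 3.61 ± 2.05). The means of *Rbp4* and *Lep* in eWAT, and of *Lep* and *Rarres2* in both depots, differed by less than the SD of *Lep*. On HFD the order differed, since *Lep* stood at 1189 ± 306.4 CPM per kb in eWAT and 1447 ± 175.9 in iWAT of wild type mice (n = 5 each), above *Cfd* at 631.1 ± 497.0 and 1009 ± 692.4. *Adipoq* then had the highest mean of the 9 in both depots, at 1487 ± 505.3 and 1981 ± 198.7 CPM per kb, within the SD of *Lep* in eWAT. The members together took 0.486% to 1.48% of all counts of a library.

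**Figure D2:**
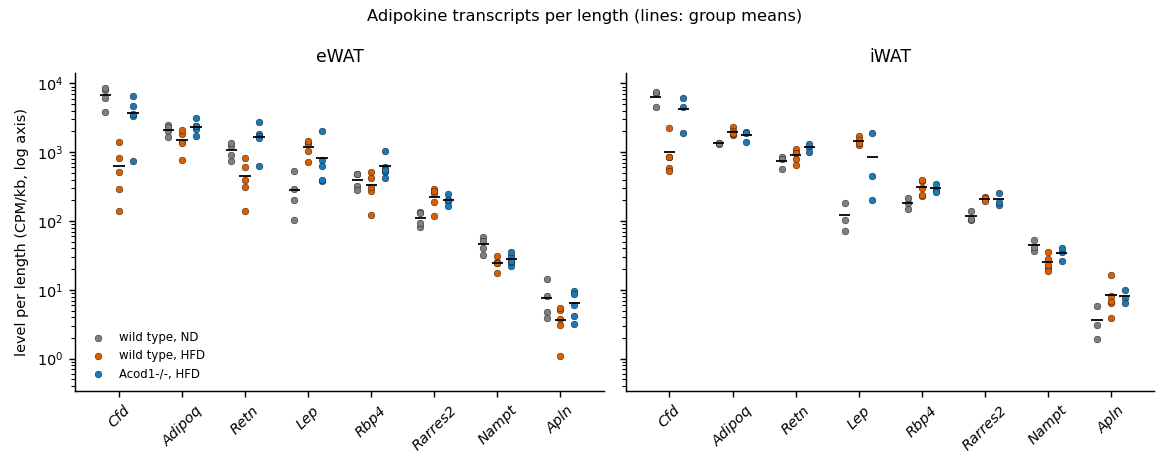
Level per length (CPM per kb, log axis) of 8 adipokines in each library, by depot and group, with the group means as lines. *Cfd* was highest on ND and was lower than *Lep* and *Adipoq* in wild type mice on HFD in both depots.

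*Itln1*, which human visceral fat makes in quantity, was not detectable at this depth in most libraries. It had no count in any ND library and none in eWAT of *Acod1*-/- mice. The 4 libraries with any count had 1 to 4 reads, namely 3 in eWAT wild type HFD library 4, 1 and 3 in iWAT wild type HFD libraries 2 and 4 and 4 in iWAT *Acod1*-/- library 1. A library with no read allows a level of up to 3 counts, for counting error alone.

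**Figure D3:**
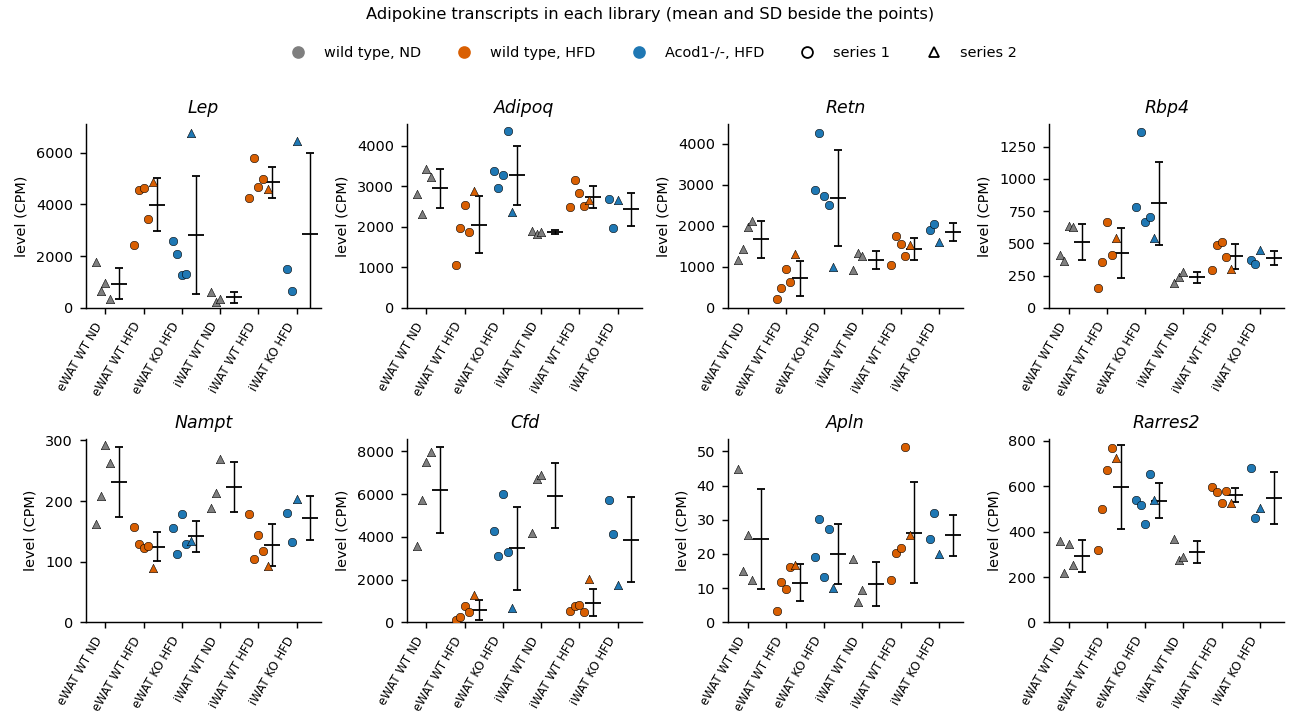
Level (CPM) of 8 adipokines in each library by group, with the mean and SD beside the points, circles for series 1 and triangles for series 2. *Lep* of the *Acod1*-/- groups was split between libraries of series 1 (668.7 to 2596 CPM) and of series 2 (6447 and 6752 CPM), and *Cfd* of wild type mice was lower on HFD in both depots.

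In eWAT of wild type mice, *Lep* and *Rarres2* were called higher on HFD, and *Cfd*, *Nampt*, *Retn* and *Apln* lower. Calls were made where the adjusted p was below 0.1 in edgeR's quasi-likelihood test adjusted over all genes by the Benjamini-Hochberg method. These 6 of the 8 members tested compare with 51.8% of all 14936 genes called in this comparison, and the median log2 fold change was -0.70 over the members and -0.04 over all genes. Diet nearly coincides with series, and with the series as a term 4 members were called, beside 5139 of the 14936 genes.

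*Lep* measured 1762, 671.2, 979.6 and 347.8 CPM in the ND libraries and 2432, 4564, 4623, 3451 and 4872 in the HFD libraries. All HFD libraries were above all ND libraries, and the log2 fold change was 2.09 (SE 0.54, adjusted p = 0.0082), a 4.24-fold rise. *Cfd* went the other way, from 3568, 5713, 7486 and 7992 CPM on ND to 128.3, 264.8, 762.4, 472.3 and 1281 on HFD. Here too the groups did not overlap, and the log2 fold change was -3.41 (SE 0.64, adjusted p = 0.00147), the lowest of the members. HFD library 5, of the same series as the ND libraries, measured 4872 CPM of *Lep* and 1281 of *Cfd*, on the same side of every ND library as the rest of its group.

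*Retn* was at 1166 to 2126 CPM on ND and at 218.5, 484.8, 952.3, 632.6 and 1318 CPM on HFD. Only HFD library 5 reached into the range of the ND libraries, and the log2 fold change was -1.21 (SE 0.45, adjusted p = 0.0427). With the series as a term the *Retn* difference was no longer called (-1.09, adjusted p = 0.221), nor was it without ND library 4 (-1.08, adjusted p = 0.102). *Adipoq* measured 2324 to 3421 CPM on ND and 1049 to 2870 on HFD (log2 fold change -0.52, SE 0.25, adjusted p = 0.112), with overlapping groups. It was called without ND library 2 (adjusted p = 0.0919), HFD library 3 (0.0969), HFD library 5 (0.0521) or *Acod1*-/- library 5 (0.0909), and by DESeq2's Wald test over all libraries (-0.51, adjusted p = 0.0756). For the vitamin A carrier *Rbp4* the groups spanned 363.4 to 632.4 and 156.4 to 666.3 CPM, and the log2 fold change was -0.25 (SE 0.36, adjusted p = 0.585). HFD library 1 had the lowest level of *Lep*, *Adipoq*, *Retn*, *Rbp4*, *Cfd*, *Apln* and *Rarres2* of its group, with the lowest adipocyte (37495 CPM) and the highest macrophage (6302 CPM) marker sum. The part of these markers in the differences was not tested.

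*Nampt* was at 161.5 to 292.6 CPM on ND and at 89.9 to 157.6 on HFD, with no overlap (log2 fold change -0.89, SE 0.19, adjusted p = 0.00313), and was not called when libraries were scaled to the adipocyte markers (-0.50, adjusted p = 0.19). The chemerin gene *Rarres2* rose from 360.3, 217.4, 347.2 and 251.6 CPM to 319.0, 498.9, 670.2, 767.9 and 722.8 (1.02, SE 0.24, adjusted p = 0.00499). HFD library 1 alone lay among the ND libraries. *Apln*, the member with the lowest level, fell by 1.07 on the log2 scale (SE 0.47, adjusted p = 0.0781), from 12.4 to 44.8 CPM on ND to 3.42 to 16.9 on HFD. The difference was no longer called when ND library 1, which held 44.8 CPM, was left out (-0.61, adjusted p = 0.305), and also without ND library 3 or HFD library 1, 2 or 3. Nor was it called with the series as a term (adjusted p = 0.24), under the adipocyte marker scaling (0.121) or without the filter on low counts (0.112).

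In iWAT of wild type mice, *Lep*, *Rarres2*, *Adipoq*, *Rbp4* and *Apln* were called higher on HFD, and *Cfd* and *Nampt* lower. This was 7 of 8 members, where 50.1% of all 14801 genes were called. The median log2 fold change of the members was 0.68, and that of all genes 0.00. With the series as a term 6 members were called, beside 5750 of the 14801 genes.

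*Lep* rose from 622.4, 236.9 and 352.8 CPM to 4234, 5796, 4660, 4981 and 4595 CPM. The lowest HFD library was far above the highest ND library, and the difference was 12.3-fold (log2 fold change 3.62, SE 0.68, adjusted p = 0.00191). *Cfd* fell from 4168, 6708 and 6876 CPM to 541.6, 776.3, 796.8, 489.7 and 2045 (-2.63, SE 0.48, adjusted p = 0.00161). The groups were apart, with HFD library 5, of the series of the ND libraries, nearest to them.

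*Adipoq* was at 1907, 1820 and 1865 CPM on ND and at 2496, 3160, 2842, 2521 and 2656 on HFD, again apart (0.58, SE 0.15, adjusted p = 0.00881). *Rbp4* was higher in every HFD library (295.7 to 511.0 CPM) than in every ND library (194.4 to 279.6), with a log2 fold change of 0.78 (SE 0.22, adjusted p = 0.0147). For *Apln* the levels were 5.99 to 18.5 CPM on ND and 12.3 to 51.3 on HFD (1.25, SE 0.46, adjusted p = 0.048). These groups overlapped, and *Apln* was not called without ND library 2 (adjusted p = 0.173), ND library 3 (0.145) or HFD library 4 (0.105), and with the series as a term (0.187). The 3 genes *Adipoq*, *Rbp4* and *Apln* were not called once libraries were scaled to the adipocyte markers (log2 fold changes 0.10, 0.30 and 0.79, adjusted p = 0.547, 0.17 and 0.184). Under that scaling 2 members were higher and 2 lower, against 5 and 2 with TMM. The adipocyte marker sum was 38644 to 46946 CPM in the ND and 62773 to 78109 in the HFD libraries. Brown adipocyte markers summed to 162.6 to 1240 CPM on ND and 44.6 to 83.3 on HFD. Skeletal muscle markers stood at 7105, 5.49 and 273.8 CPM in the ND libraries and at 18.4 to 297.6 on HFD. The part of lymphocyte, brown adipocyte and muscle transcripts was not tested.

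*Rarres2* rose from 275.2 to 365.6 CPM on ND to 526.4 to 595.0 on HFD, without overlap (0.89, SE 0.15, adjusted p = 0.000992). *Nampt* fell from 188.5, 212.9 and 268.5 CPM to 178.8, 104.3, 143.7, 116.9 and 93.4 (-0.78, SE 0.22, adjusted p = 0.0154), also without overlap. *Retn* measured 915.1 to 1329 CPM on ND and 1045 to 1755 on HFD (0.32, SE 0.19, adjusted p = 0.192), and was called only without HFD library 1 (0.42, adjusted p = 0.0782).

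**Figure D4:**
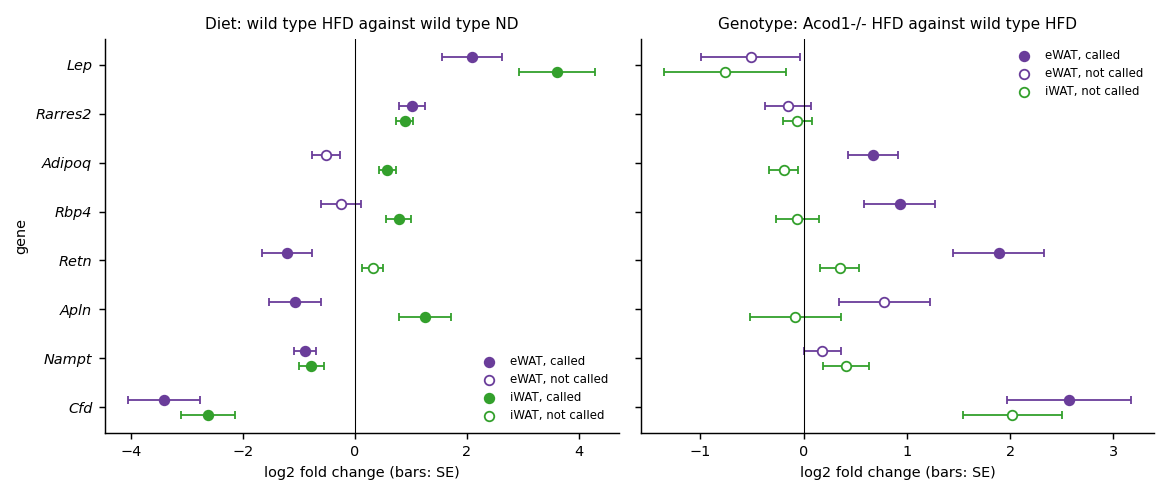
Fitted log2 fold change of 8 adipokines (bars, SE) for diet and for genotype in each depot, with filled points for adjusted p under 0.1. *Lep*, *Rarres2*, *Nampt* and *Cfd* moved the same way with diet in both depots, and *Adipoq*, *Rbp4*, *Retn* and *Apln* lay on opposite sides of 0.

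The response to diet differed between the depots for *Adipoq*, *Retn* and *Apln*. The difference, as the eWAT minus the iWAT response, was -1.07 for *Adipoq* (SE 0.32, adjusted p = 0.0184), -1.51 for *Retn* (SE 0.56, adjusted p = 0.0578) and -2.28 for *Apln* (SE 0.71, adjusted p = 0.0252) on the log2 scale, in a fit of all 25 libraries. These 3 of 8 members compare with 29% of all 15034 genes. Endothelial markers also went opposite ways with diet, with 4 of 5 called lower in eWAT (median log2 fold change -0.69) and 5 of 5 higher in iWAT (0.95), and their part was not tested. The *Adipoq* and *Retn* differences were not called under the adipocyte marker scaling (-0.39, adjusted p = 0.187, and -0.85, adjusted p = 0.113), and *Retn* was not called without eWAT ND library 4 (0.105) or iWAT ND library 1 (0.128). *Lep* rose less in eWAT than in iWAT by 1.5 on the log2 scale, but this difference was not called (SE 0.81, adjusted p = 0.199), although it was when the *Acod1*-/- libraries were left out of the fit (adjusted p = 0.0512).

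In eWAT of HFD-fed mice, loss of *Acod1* went with higher *Cfd*, *Retn*, *Rbp4* and *Adipoq*. No member was called lower with TMM scaling. The 4 of 8 members called stand beside 19.9% of all 14936 genes called for genotype, and medians of the log2 fold change were 0.73 for the members and 0.04 for all genes. Scaled to the adipocyte markers, *Adipoq* was not called (0.30, adjusted p = 0.203) and *Rarres2* was called lower (-0.52, adjusted p = 0.0917), which made 3 members higher and 1 lower.

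*Cfd* measured 4255, 3114, 5997, 3287 and 681.5 CPM in the *Acod1*-/- libraries, against 128.3 to 1281 in wild type. Of the *Acod1*-/- libraries, 4 were above every wild type library and library 5 was within their range, and the log2 fold change was 2.57 (SE 0.6, adjusted p = 0.0182). *Retn* stood at 2863, 4270, 2733, 2499 and 986.1 CPM, against 218.5 to 1318 in wild type (1.89, SE 0.44, adjusted p = 0.0174). Again library 5 alone was in the wild type range. Both genes kept their call under every alternative run.

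*Adipoq* was at 3369, 2957, 3273, 4360 and 2357 CPM in *Acod1*-/- mice (0.67, SE 0.24, adjusted p = 0.0855), and library 5 lay below the highest wild type library (2870). *Rbp4* was at 780.2, 1363, 662.1, 708.0 and 540.0 CPM, overlapping the wild type range of 156.4 to 666.3 (0.93, SE 0.34, adjusted p = 0.0899). The calls of *Adipoq* and *Rbp4* were close to the threshold. Leaving out 1 library ended the *Adipoq* call for 8 of the 14 libraries (ND 4, wild type HFD 1, 2 and 4 and *Acod1*-/- 1, 2, 3 and 4), and its adjusted p ranged from 0.0408 to 0.192. For *Rbp4* it did so for 10 (the same 8 and ND 1 and 3), with adjusted p from 0.0519 to 0.206.

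*Lep* was at 2596, 2101, 1280, 1310 and 6752 CPM in the *Acod1*-/- libraries and at 2432 to 4872 in wild type, with no call over all libraries (-0.51, SE 0.48, adjusted p = 0.515). Library 5 held more *Lep* than any wild type library, whereas 3 of the other 4 were below all of them. Within series 1, which leaves out library 5 of each HFD group and the ND group, *Lep* was called lower in *Acod1*-/- mice (-1.06, SE 0.30, adjusted p = 0.0368). Leaving out *Acod1*-/- library 5 alone gave -1.14 (adjusted p = 0.0579). In series 1 the differences of *Cfd* (3.34, adjusted p = 0.00338) and *Retn* (2.41, adjusted p = 0.00439) were larger than over both series, and *Apln* was called higher (1.11, adjusted p = 0.0979), so that 6 of 8 members were called, beside 3793 of 14672 genes. Over both series *Apln* measured 10.1 to 30.1 CPM in *Acod1*-/- and 3.42 to 16.9 in wild type mice (0.78, SE 0.44, adjusted p = 0.262).

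*Nampt* (112.9 to 179.3 CPM in *Acod1*-/- mice, log2 fold change 0.18, SE 0.18, adjusted p = 0.539) and *Rarres2* (433.2 to 653.1 CPM, -0.15, SE 0.22, adjusted p = 0.689) were not called. Their ranges overlapped those of wild type mice. Beside these values, all 10 macrophage markers were called lower in *Acod1*-/- mice, and 3 of 12 adipocyte and 3 of 6 epididymis markers higher. *Acod1*-/- library 5 had the highest macrophage (1799 CPM) and epididymis (1049 CPM) marker sums of its group. The part of these markers in the adipokine differences was not tested.

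In iWAT no adipokine was called for genotype with edgeR, as 0% of all 14801 genes were. At an unadjusted p under 0.05 there were 2468 genes, and DESeq2's Wald test called 1072 at the same threshold, *Cfd* among them (2.06, adjusted p = 0.0246). Among the 8 members the median log2 fold change was -0.06, against -0.01 over all genes.

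*Cfd* was at 5717, 4147 and 1762 CPM in the *Acod1*-/- libraries and at 489.7 to 2045 in wild type. Libraries 1 and 2 were above every wild type library, library 3 was within their range, and the log2 fold change was 2.02 (SE 0.48, adjusted p = 0.137). *Lep* was at 1498, 668.7 and 6447 CPM, against 4234 to 5796 in wild type (-0.76, SE 0.59, adjusted p = 0.551). Libraries 1 and 2 were thus below, and library 3 above, every wild type library.

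Within series 1, which holds *Acod1*-/- libraries 1 and 2 and wild type libraries 1 to 4 of iWAT, both genes were called, beside 2157 of 14429 genes. *Lep* was lower by genotype (-2.17, SE 0.34, adjusted p = 0.0251) and *Cfd* higher (2.93, SE 0.24, adjusted p = 0.0136). Leaving out library 3 alone gave -2.17 (adjusted p = 0.0192) and 2.4 (0.0214), and leaving out wild type library 5 gave a *Cfd* call too (2.54, adjusted p = 0.0383). Library 3 was of series 2 and is labelled with 18 weeks of HFD, so series and duration cannot be told apart for it. This library and eWAT *Acod1*-/- library 5 had levels of *Lep* and *Cfd* within or beyond the wild type HFD range, on the side away from the other *Acod1*-/- libraries. Their genotype could not be checked from *Acod1* counts, and whether they came from 1 mouse is not given in the sources used here, which bears on each genotype value that includes them.

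The other iWAT members overlapped between the genotypes. The values were 1611 to 2047 CPM for *Retn* in *Acod1*-/- mice (0.35, SE 0.19, adjusted p = 0.378), 131.9 to 202.8 for *Nampt* (0.41, SE 0.22, adjusted p = 0.38) and 1959 to 2681 for *Adipoq* (-0.19, SE 0.14, adjusted p = 0.539). For *Rbp4*, *Apln* and *Rarres2* the log2 fold changes were -0.06 (SE 0.21), -0.08 (SE 0.44) and -0.06 (SE 0.14), and their direction turned under some settings. The response to genotype was not called as different between depots for any of 8 members, where 0.00665% of all genes (1 gene) were called and 1524 had an unadjusted p under 0.05.

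**Figure D5:**
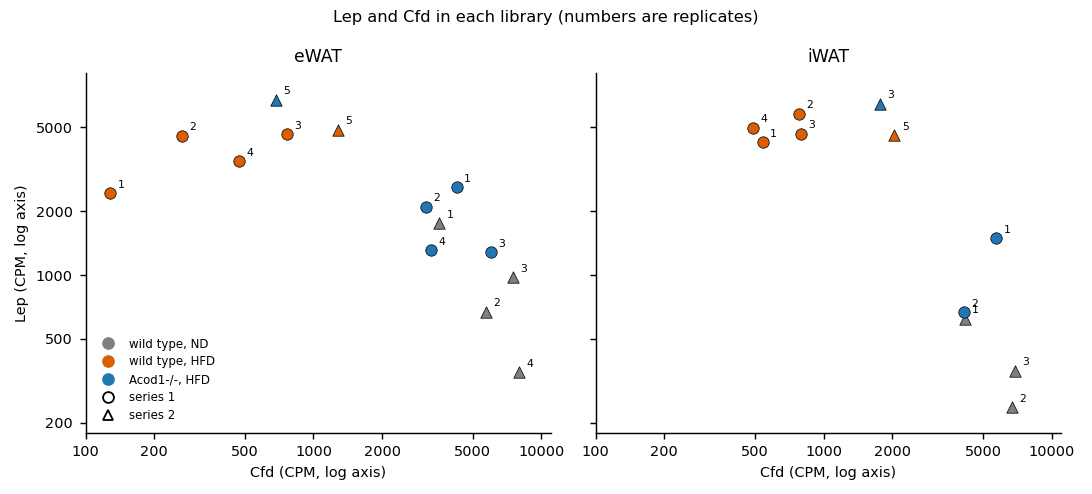
*Lep* against *Cfd* (CPM, log axes) in each library of eWAT and iWAT, with replicate numbers beside the points, circles for series 1 and triangles for series 2. The *Acod1*-/- libraries of series 1 lay at 3114 to 5997 CPM of *Cfd* and 668.7 to 2596 of *Lep*, and those of series 2 (eWAT 5 and iWAT 3) at 681.5 and 1762 of *Cfd* and 6752 and 6447 of *Lep*.

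In 4 of 6 groups the library with the highest *Lep* was the one with the lowest *Cfd*, the exceptions being the wild type HFD groups of both depots. In groups of 3 to 5 libraries some such matches arise by chance, and in both *Acod1*-/- groups the library was that of series 2. In eWAT of wild type mice on HFD *Lep* and *Cfd* went together instead at both ends. Library 5 was highest in both genes (4872 and 1281 CPM) and library 1 lowest in both (2432 and 128.3 CPM). The ratio of *Lep* to *Cfd* (of CPM values, as a description) had a median of 0.124 on ND, 7.31 on HFD and 0.61 in *Acod1*-/- mice in eWAT. In iWAT these medians were 0.0513, 7.47 and 0.262. The *Acod1*-/- range was wide, from 0.213 to 9.91 in eWAT and from 0.161 to 3.66 in iWAT. The ratio of *Lep* to *Adipoq* was 0.108 to 0.626 on ND, 1.7 to 2.33 on HFD and 0.3 to 2.86 in *Acod1*-/- mice in eWAT, and 0.13 to 0.326, 1.64 to 1.98 and 0.341 to 2.43 in iWAT. With either ratio the highest *Acod1*-/- value was that of the series 2 library.

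Set against ND-fed wild type mice, HFD-fed *Acod1*-/- mice had higher *Rarres2* in both depots, although in iWAT it was not called when scaled to the adipocyte markers (0.36, adjusted p = 0.198). This comparison shares its libraries with the diet and the genotype comparison and is not independent of them. In eWAT 3 members were called, beside 26.5% of all genes, namely *Rarres2* (0.87, adjusted p = 0.0294), *Nampt* (-0.70, adjusted p = 0.0284) and *Lep* (1.58, adjusted p = 0.056). The *Lep* call was lost without *Acod1*-/- library 5 (0.95, adjusted p = 0.117) and without ND library 2, 3 or 4. It was also lost under the adipocyte marker scaling (1.42, adjusted p = 0.149), with the replicate block (0.109) and with only the groups compared (0.101). *Rarres2* was not called with the series as a term (1.02, adjusted p = 0.103). *Cfd* and *Retn* were not called, and their ranges overlapped those of the ND libraries.

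In iWAT 5 members were called higher, beside 34.6% of all genes, and none lower. They were *Lep* (2.86, adjusted p = 0.011), *Rarres2* (0.83, adjusted p = 0.00358), *Rbp4* (0.71, adjusted p = 0.0459), *Retn* (0.67, adjusted p = 0.0377) and *Adipoq* (0.39, adjusted p = 0.0945). *Lep* in *Acod1*-/- libraries 1 and 2 (1498 and 668.7 CPM) was above the ND range of 236.9 to 622.4 CPM, and library 3 (6447) was far above it. *Cfd* was not called. The *Adipoq* call was lost when any 1 of 8 libraries was left out (ND 1, 2 or 3, wild type HFD 1, 3 or 5, *Acod1*-/- 1 or 3), that of *Rbp4* without ND 1 or 2 or *Acod1*-/- 3, and that of *Retn* without ND 1. Under the adipocyte marker scaling *Retn* (0.21, adjusted p = 0.479) and *Rbp4* (0.23, adjusted p = 0.368) were not called either. With the series as a term, calls were lost for *Adipoq* (0.46, adjusted p = 0.122), *Retn* (0.66, adjusted p = 0.107) and *Rbp4* (0.69, adjusted p = 0.116). Without *Acod1*-/- library 3 the *Lep* difference was 1.43 (adjusted p = 0.0235).

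Between the depots, eWAT of ND-fed mice had more *Adipoq* and *Rbp4* than iWAT. Both were apart, with 2324 to 3421 against 1820 to 1907 CPM of *Adipoq* (0.66, SE 0.24, adjusted p = 0.0522) and 363.4 to 632.4 against 194.4 to 279.6 CPM of *Rbp4* (1.10, SE 0.36, adjusted p = 0.0304). They were the 2 members called, beside 31.7% of all genes. *Adipoq* was not called without eWAT ND library 3 (adjusted p = 0.107) or iWAT ND library 2 (0.15) or 3 (0.121), nor *Rbp4* without iWAT ND library 1 (0.104). In HFD-fed wild type mice the 2 called were *Retn* and *Apln*, both lower in eWAT, beside 18.6% of all genes. *Retn* measured 218.5 to 1318 CPM in eWAT and 1045 to 1755 in iWAT (-0.99, SE 0.35, adjusted p = 0.0694), and *Apln* 3.42 to 16.9 and 12.3 to 51.3 CPM (-1.18, SE 0.45, adjusted p = 0.0857), so that both overlapped. Neither was called without wild type HFD library 1 or 2 of eWAT, or 2, 3 or 5 of iWAT, nor was *Retn* without library 4 of eWAT, or *Apln* without library 3 of eWAT or 4 of iWAT. In HFD-fed *Acod1*-/- mice no member was called between depots with edgeR, beside 3.81% of all genes (2092 genes at an unadjusted p under 0.05), while DESeq2's Wald test called 1 member, *Rbp4*.

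The receptors, binding partners and enzymes that act with these adipokines were read from a list of 30 genes, of which 29 were matched and 27 tested in eWAT and 28 in iWAT. With diet in eWAT, 12 were called higher and 2 lower, or 51.9% of those tested beside 51.8% of all genes. The highest ranked by adjusted p were *Cfp*, the complement properdin (from 24.4 to 37.9 CPM to 67.4 to 111.0, log2 fold change 1.30), *Leprot*, which shares its start of transcription with the leptin receptor gene (0.65), and *C3ar1*, the receptor of the complement fragment C3a (3.51, adjusted p = 0.00126). The 2 lower genes were *Sirt1*, a deacetylase that uses NAD (-0.67, adjusted p = 0.0157), and *Cmklr1*, the chemerin receptor (-0.54, adjusted p = 0.076). *C3ar1* is also expressed by macrophages, whose 10 markers were all called higher in this comparison, and their part was not tested.

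In iWAT, 8 partners were called higher on HFD and 5 lower (46.4% of those tested, beside 50.1% of all genes). *Aplnr*, the apelin receptor, rose from 10 to 14.3 CPM to 43.6 to 98.8 (2.56, SE 0.26, adjusted p = 9.41e-05), as its ligand *Apln* did in this depot. *Ttr*, which carries retinol binding protein 4 in blood, had at most 2 counts in an ND library and 463 to 4163 in the HFD libraries. *C3ar1* rose by 3.20 (adjusted p = 0.000649). The leptin receptor gene *Lepr* fell by 3.30 on the log2 scale (SE 0.34, adjusted p = 9.96e-05), from 15.9 to 34.9 CPM to 1.67 to 3.22. *Sirt1* (-0.60, adjusted p = 0.00238) and the complement component *C3* (-1.02, adjusted p = 0.00431) were lower too. The ND libraries of this depot are those with the high lymphocyte markers, whose part was not tested.

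With genotype in eWAT, 10 partners were called lower and 1 higher (40.7% of those tested, beside 19.9% of all genes). *C3ar1* (-2.94, adjusted p = 0.0114), *Leprot* (-0.52, adjusted p = 0.0122) and *Cfp* (-0.77, adjusted p = 0.0195) led those that fell. All 10 macrophage markers were called lower in this comparison (median log2 fold change -2.12), and their part was not tested. *Cdh13*, which encodes T-cadherin, the surface protein that binds adiponectin, was the 1 that rose (0.71, SE 0.25, adjusted p = 0.0822). In iWAT none was called with edgeR. The adiponectin receptor genes *Adipor1* and *Adipor2*, named here after their values were seen, were called in none of these 4 comparisons.

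A list of 40 other factors secreted by fat had 32 genes tested in eWAT and 31 in iWAT. With diet in eWAT, 14 were higher and 3 lower (53.1% of those tested, beside 51.8% of all genes). *Metrnl*, a secreted relative of meteorin, rose from 6.11 to 13.9 CPM to 40.6 to 103.0 (2.67, adjusted p = 0.000319), *Fstl1*, a follistatin-like glycoprotein, by 1.65 (adjusted p = 0.000686), and *Saa3*, an acute-phase protein, from 1.3 to 5.16 CPM to 77.1 to 155.8 (5.36, adjusted p = 0.00076). *Agt*, the angiotensin precursor, fell from 204.7 to 315.9 CPM to 22.6 to 74.4 (-2.52, adjusted p = 0.000373), with the endothelin gene *Edn1* (-1.66) and the vascular growth factor gene *Vegfa* (-1.55). All 10 macrophage markers were called higher in this comparison, and their part was not tested.

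In iWAT, 19 of these factors were higher on HFD and 4 lower (74.2% of those tested, beside 50.1% of all genes). *Fstl1* (2.30), *C1qtnf9*, an adiponectin paralogue (1.37), and *Metrnl* (2.55) had the smallest adjusted p among those that rose. Those that fell most clearly were the B cell chemokine *Cxcl13* (-3.83, adjusted p = 0.00117), *Vegfa* (-0.69, adjusted p = 0.00623) and the BMP antagonist *Grem1*, which had 245 to 646 counts on ND and 0 to 33 on HFD. The iWAT ND libraries are those with the high lymphocyte markers, whose part was not tested. With genotype, 4 were higher and 7 lower in eWAT (34.4% of those tested, beside 19.9% of all genes), and none was called in iWAT with edgeR (0% of all genes). *Agt* (1.61, adjusted p = 0.0132), *Nrg4*, a neuregulin (0.92, adjusted p = 0.0496), and *C1qtnf12*, another adiponectin paralogue (0.66, adjusted p = 0.0706), rose in *Acod1*-/- mice. *Metrnl* (-1.69, adjusted p = 0.0111), the irisin precursor gene *Fndc5* (-2.27, adjusted p = 0.0157) and *Ptx3*, a pentraxin (-1.71, adjusted p = 0.0369), fell. All 10 macrophage markers were called lower with genotype in eWAT, and their part was not tested.

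For each adipokine, the genes most like it over the 25 libraries were found by Pearson's r of log2 CPM among 14128 genes tested in both depots, as a description without a test, since group and depth are shared by all points. *Lep* was most like *Sparc* (r = 0.974), *Trp53inp2* (0.961) and *Pcolce2* (0.958), and *Cfd* most like *Prodh* (0.964), *Sfxn1* (0.961) and *Acsm3* (0.958). For *Retn* they were *Car3* (0.924), *9630013D21Rik* (0.922) and *Ginm1* (0.919), and for *Adipoq* *Kcns3* (0.899), *Iah1* (0.887) and *Tmem43* (0.866). *Rbp4* came closest to *Eif4ebp1* (0.92), *Inpp5a* (0.912) and *Pxmp4* (0.903), *Nampt* to *Glul* (0.917), *Ranbp9* (0.904) and *Fkbp5* (0.877), and *Rarres2* to *Ltc4s* (0.924), *Cryab* (0.91) and *Hist2h3c2* (0.891). *Apln* had the lowest values, with *Nrarp* (0.849) and *Rflnb* (0.848). No adipokine of the 9 was among the 3 genes most like another.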

How the data were processed

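RNA of 14 eWAT and 11 iWAT samples was sequenced by the authors as directional mRNA libraries, trimmed with cutadapt, aligned with STAR to GRCm38 and counted on genes. The deposited files hold whole-number counts per gene without normalization, 5 classes of uncounted reads (8.48% to 13.4% of reads classified), which were left out, and 2 columns of FPKM, which the authors derived from the counts and cDNA lengths (checked to within 0.0005) and which were not tested. The counting program and its use of strand are not given in the sources used here. Symbols for 54723 gene IDs came from GENCODE vM21.

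Counts were fitted per depot in R 4.3.3 with edgeR 4.0.16 (TMM, mean of at least 1 CPM, quasi-likelihood test, 3 groups), and depots and interactions in 1 fit of 25 libraries. P-values were adjusted by the Benjamini-Hochberg method over every gene tested, with calls below 0.1, the study's threshold. Group comparisons were diet, genotype and both, in each depot. Each SE printed with a log2 fold change was derived from the quasi-likelihood test, as the absolute log2 fold change divided by the square root of its F value. Log2 CPM used a prior count of 2. The fits were also run on simulated data with 200 changed genes, far fewer than were called for diet, and with no series effect. The outcome is not reported here. DESeq2 1.42.0 served for alternatives, edgeR for log values, and Python 3.11.15 with matplotlib 3.10.9 for tables and figures. Depth was 31.41 to 52.34 M counted reads. Within a depot, separate mice are the replicates.

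The members, gene lists and tests were chosen with earlier results of these data known. All 9 members are named with their values. From each list at most 3 called genes a direction and comparison are named, by adjusted p, and of genes alike, the 3 with the highest r, of which 1 is not reported here. Of the listed partners, 1 was not matched, and 2 were found under an older symbol. Alternatives were other filters, scalings, tests and thresholds, a replicate block, the series of the column headers, and each library left out. The replicate block was a term for the library number, shared by all groups.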

Additional observations from a re-analysis of the deposited data

Results flagged for a closer look

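*Lep* in eWAT *Acod1*-/- HFD library 5 stood at 6752 CPM, far from the other 4 libraries of its group (1280 to 2596 CPM), and *Cfd* in iWAT wild type HFD library 5 stood at 2045 CPM, far from the other 4 (489.7 to 796.8 CPM). Each was a single library whose gap to its nearest neighbour exceeded Dixon's limit, in 32 groups of 4 or 5 libraries tested, of which chance flags about 1 in 20. Both libraries were of series 2, and groups of 3 were not tested.

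The response to diet differed between eWAT and iWAT, as an interaction term called by edgeR, for *Retn* (-1.51 on the log2 scale), *Adipoq* (-1.07) and *Apln* (-2.28). In eWAT *Retn* and *Apln* were called lower on HFD and *Adipoq* was not called, while in iWAT *Adipoq* and *Apln* were called higher and *Retn* was not called. Lymphocyte markers were high in the iWAT ND libraries and macrophage markers in the eWAT wild type HFD libraries, and their part was not tested.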

How the results depend on the processing

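The counts of adipokines called for diet in eWAT (6), for *Acod1*-/- HFD against ND in eWAT (3), and for both interactions (3 and 0) stayed within 1.5 times under every alternative other than leaving out a library. For genotype in eWAT the count of 4 (beside 2976 genes in all) became 2 at an adjusted p under 0.05, without the filter on low counts, with the replicate block and with only the groups compared. All genes called were then 1717, 2504, 2389 and 2304. For genotype in iWAT the count of 0 became 1 without the filter, with 1 CPM required in every library and with DESeq2's Wald test (beside 77, 91 and 1072 genes in all), and 2 within series 1 (2157 genes). Scaled by adipocyte markers, the count for diet in iWAT fell from 7 to 4 while that of all genes rose from 7415 to 8588. For *Acod1*-/- HFD against ND in iWAT it fell from 5 to 2 (all genes, 5126 to 6480), and was 2 also with the series as a term (4099). Between depots it went from 2 to 1 on ND (4772 to 3301) and from 2 to 4 in wild type mice on HFD (2791 to 8111). In *Acod1*-/- mice it went from 0 to 1 (573 to 371), and was 1 also with the Wald test (892). At an adjusted p under 0.05 the depot counts on ND and in wild type mice on HFD were 1 and 0 (all genes, 3657 and 1911). The latter count was 0 without the filter (1963) and 1 with the replicate block (2951). The adipocyte scaling moved the median log2 fold change of all genes, to 0.254 and -0.474 for diet in eWAT and iWAT, -0.432 for genotype in eWAT, and 0.708 for the diet interaction.

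With 1 library left out in turn, the counts ranged from 5 to 7 (eWAT diet), 2 to 5 (eWAT genotype), 2 to 3 (eWAT both), 6 to 8 (iWAT diet), 0 to 2 (iWAT genotype), 3 to 6 (iWAT both), 1 to 3, 0 to 3 and 0 to 1 (depots on ND, wild type HFD and *Acod1*-/- HFD), 2 to 4 (diet interaction) and 0 to 0 (genotype interaction). These values changed direction. Scaled by adipocyte markers, *Nampt* for genotype in eWAT was -0.35, *Retn* for diet in iWAT -0.17 and *Adipoq* for *Acod1*-/- HFD against ND in iWAT -0.10. For genotype in iWAT, *Apln* was 0.45 with the replicate block and 0.093 within series 1, and *Rarres2* 0.006 within series 1. With 1 library left out, *Apln* ranged from -0.26 to 0.35, *Rarres2* from -0.21 to 0.076 and *Rbp4* from -0.17 to 0.063 there. The causes were not tested. Where an arm was left with few libraries, these were assumed to vary like the other groups. For 48 values of single genes there were 1145 combinations of a value with a setting. Of these, 1002 kept direction and side of the threshold, 111 lost and 19 gained a call, and 13 changed direction.

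Whether equal numbers mark a shared origin is not given, and they were not used as pairs. The rule for pairing, that every pair correlate above 0.1, was not met, but it cannot show that libraries came from separate mice. The fits over both depots took the 25 libraries as independent. The replicate block, run as an alternative, joined all libraries of a number whatever their group, and so different mice. It did not pair the depots of a mouse, so dependence between depots was not tested. Deviations from group means of same-numbered libraries correlated with r from -0.26 to 0.26 in eWAT, -0.33 to 0.36 in iWAT and -0.09 to 0.49 between depots. They were above 0.1 for 9 of 13, 4 of 9 and 4 of 11 pairs, and in 5 of 13, 3 of 9 and 6 of 11 cases a library was closest to its own number. Diet coincides almost wholly with the series of the headers, and diet was not tested within a series.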
